A study of Pinus pinaster with 30 samples.

Results

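Membrane transporters and water channels are represented here by 80 spots of a pine cDNA microarray, out of 26496 spots in all. They were found among the 2041 annotated spots of the study's tables of changed transcripts, by the words transporter, aquaporin, intrinsic protein, channel, permease or antiporter in the Arabidopsis or NCBI description of a spot. Of the 82 spots with such a word, 1 spot named AUX1 and 1 spot with a kinase in its description were left out. The tables hold spots that the study selected because their level changed over the harvests, either along a quadratic curve over days or by at least 2-fold between consecutive harvests. All differences between harvests given below for these spots therefore describe values that had already chosen them, and no test of them is given. The table of time course spots was used only in part, 1631 spots, so that transporters in the rest of it are not counted.

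The material was zygotic embryos of *Pinus pinaster*, maritime pine, dissected from cones of open-pollinated plus trees of a clonal orchard at 5 harvests. Day0 held early embryos, Day5 pre-cotyledonary, Day11 early cotyledonary, Day15 cotyledonary and Day25 mature embryos. Each harvest had 3 biological samples, each a pool of 60 embryos from several trees, and each sample was hybridized on 2 arrays, 30 arrays in all. Cy3 marked the embryo RNA and Cy5 a reference pool of equal RNA from all samples, without a dye swap, on an array built from loblolly pine sequences. Harvest and developmental stage cannot be told apart in this design, and the Day0 and Day5 pools span several consecutive stages. A pool carries no single genotype.

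A lipid bilayer lets few polar molecules through, so that sugars, amino acids, ions and most water cross plant membranes through proteins. Aquaporins are channels that water and some small uncharged molecules pass passively. PIP forms sit mostly in the plasma membrane, TIP forms in the tonoplast around the vacuole, and NIP forms carry boric acid, glycerol and similar solutes. Carriers of the sugar, amino acid and peptide families mostly use the proton gradient that H+-ATPases build, whereas ABC transporters spend ATP directly. A developing embryo has no vascular connection to the tissue that feeds it, here the megagametophyte of the pine seed, and takes up its nutrients across cell membranes before it stores reserves and dries.

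All values are log2 ratios of embryo over reference pool, so that 1 unit is a 2-fold difference and 0 is the level of the pool. Sample values are listed in the order of the replicate numbers, where kept. They were computed from spot intensities kept by both quality marks of an array. Between 41.0% and 70.5% of the spots were kept per array, and the ratios correlated with the authors' own at 0.993 to 0.999. The lowest correlation between any pair of arrays, all of the same dye orientation, was -0.483, and the direction follows the dyes that the labels state. Of the 80 members, 46 were measured on every day, that is in 2 or 3 samples of each, 18 of them in all 15 samples, and 34 had too few kept values. Spots said below to have values on every day had 2 or 3 kept samples on each day. No member was saturated on any array. The median log2 ratio of signal over local background of a member ran from 2.02 to 8.55 in Cy3 (median 5.44). Late embryogenesis and storage proteins, reserve and drying proteins of embryos, were on 22 spots of the same tables. Since those spots were also listed for changing over the harvests, they are no check of the tissue label. A change in a ratio can come from fewer cells of a type or from less RNA per cell, which cannot be told apart in pooled embryos.

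The transporter and channel spots were higher in some and lower in others at the first and the last step of the series. A member was counted as apart where day means differed by at least 2-fold and the samples of both days did not overlap. From Day0 to Day5, 2 of 46 members were higher, beside 0.751% of all 14513 spots with values on every day, and 7 were lower, beside 1.5%. From Day5 to Day11, 1 member was higher (0.593% of all spots) and 0 were lower (0.544%). From Day11 to Day15 the count was 0 in both directions (0.117% and 0.00689% of all spots). From Day15 to Day25, 5 members were higher (1.74%) and 5 lower (0.751%). Between Day0 and Day25, 9 were higher (8.62%) and 14 lower (7.26%). Nothing is read from the distance between these shares, since the members were chosen on the same days. The count of 2 from Day0 to Day5 was 1 without replicate 1 or replicate 2 of Day0 or without replicate 1 of Day5, and the 1 from Day5 to Day11 was 0 without replicate 3 of Day5. Without replicate 2 of Day5 or of Day11, 1 member was lower on Day11 than on Day5, and without replicate 3 of Day15, 1 was higher on Day15 than on Day11.

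**Figure D1:**
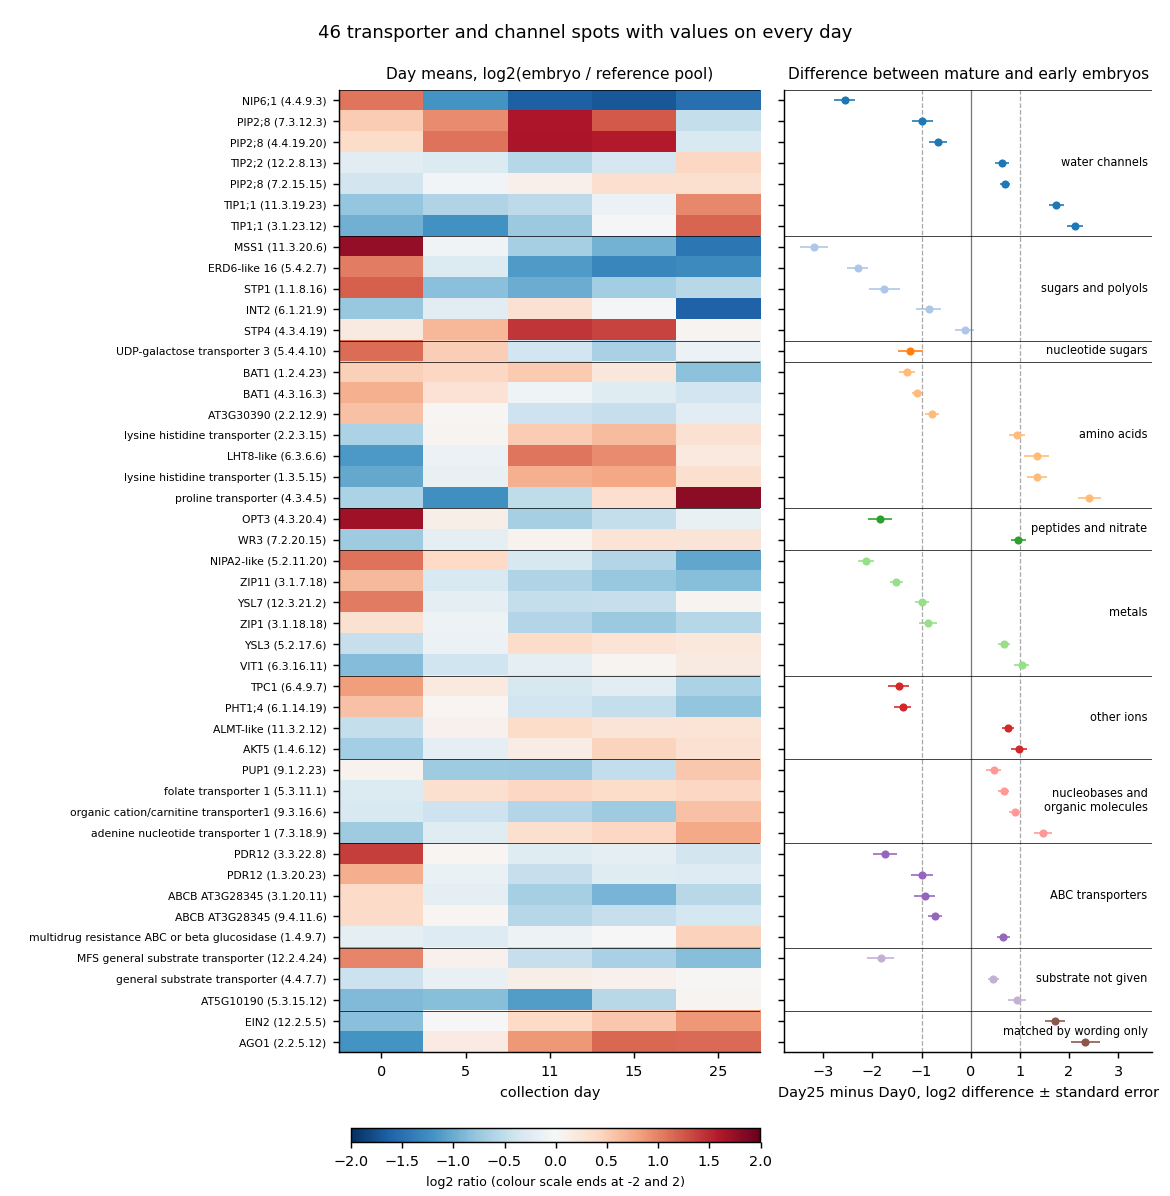
The left panel shows day means of the log2 ratio (colour, from -2 to 2) for the 46 members measured in 2 or 3 samples of each day, grouped by what they carry. The right panel shows Day25 minus Day0 (points) with its standard error (bars) on the log2 scale, and broken lines at a 2-fold difference, beyond which 9 members were higher and 14 lower without overlap of samples.

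The median size of the step, sign left aside, was 0.57 over the members from Day0 to Day5 (0.20 over all spots), 0.44 from Day5 to Day11 (0.18), 0.17 from Day11 to Day15 (0.12) and 0.34 from Day15 to Day25 (0.20). Between Day0 and Day25 it was 1.01 over the members and 0.40 over all spots. The signed median between Day0 and Day25 was -0.39 in the members and -0.025 over all spots. The highest day mean lay on Day0 in 19 members, on Day5 in 0, on Day11 in 10, on Day15 in 6 and on Day25 in 11. Over all spots with values on every day, the highest mean lay on Day0 in 27.6%, on Day5 in 19.5%, on Day11 in 12.2%, on Day15 in 9.96% and on Day25 in 30.7%. In the plot by class, members that share a substrate often lie on both sides of 0. The curve threshold of the study's rule, an R-squared of 0.7, was reached by 44 of the 46 members (28.5% of all spots). Just outside it lay a PDR12 spot (1.3.20.23) at 0.673 and the STP1 spot at 0.698, and just inside the folate transporter 1 spot at 0.776. For the rule of 2-fold steps between consecutive harvests, the member just inside was PUP1, whose largest step was 1.03 on the log2 scale, and just outside was a ZIP11 spot (3.1.7.18) at 0.96.

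Water channels showed several time courses, seen in the plot of aquaporin spots: NIP spots high in early embryos, some PIP2;8 spots high in cotyledonary embryos, and TIP1;1 high in mature embryos. The group has 11 spots, 7 of them with values on every day. Of these, 2 were apart and higher on Day25 than on Day0 (8.62% of all spots) and 1 was lower (7.26%). In *A. thaliana*, NIP6;1 is a boric acid channel of young tissues. The pine spot 4.4.9.3 (best match AT1G80760, unigene 45695) gave log2 ratios of 1.65, 0.95 and 0.60 on Day0, -0.88, -1.26 and -1.43 on Day5, -1.73, -1.38 and -1.77 on Day11, -1.74, -1.64 and -1.71 on Day15 and -1.50, -1.70 and -1.31 on Day25. Every Day0 sample lay above every sample of the later days, and the later samples ranged from -0.88 to -1.77. Its difference was -2.25 (standard error 0.22) from Day0 to Day5 and -2.57 (standard error 0.22) from Day0 to Day25. The NIP1 spot 1.1.7.15 (AT4G19030, unigenes 82497 and 82595) names a channel known to let arsenite pass. Its kept log2 ratios were 1.63, 0.94 and 1.21 on Day0, -0.70, -0.68 and -0.73 on Day5, -0.60, -0.69 and -0.90 on Day11, -0.83 on Day15 and -1.57 and -0.82 on Day25. Here too the Day0 samples stood above all others. Its means over all arrays were 1.29, -0.65, -0.71, -0.60 and -0.99 from Day0 to Day25.

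PIP2;8, a water channel of the plasma membrane, was named on 5 spots that carry several pine unigenes. Spots 4.4.19.20 (unigenes 14654 and 15564) and 7.3.12.3 (unigene 14654) share a unigene. The former had log2 ratios of 0.19, 0.47 and 0.41 on Day0, 1.48, 0.95 and 0.83 on Day5, 1.69, 1.56 and 1.67 on Day11, 1.38, 1.53 and 1.86 on Day15 and -0.41, -0.48 and -0.018 on Day25. The latter had 0.55, 0.77 and 0.21 on Day0, 1.23, 1.00 and 0.59 on Day5, 1.78 and 1.47 on Day11, 0.82, 1.39 and 1.47 on Day15 and -0.35, -0.61 and -0.46 on Day25. In both, all kept samples of Day11 and Day15 were above those of Day0, and all Day25 samples were below those of every other day. Day25 was apart from Day15 in both, by -1.89 (standard error 0.18) and -1.70 (standard error 0.20). Spot 9.3.16.15 (unigene 24177) ran alike, with 0.23, 0.35 and -0.047 on Day0, 0.90, 0.54 and 0.14 on Day5, 0.90 on Day11, 0.74, 0.81 and 1.00 on Day15 and -0.39 and -0.39 on Day25. Its Day25 samples were the lowest of its kept values, and its means over all arrays were 0.25, 0.42, 1.02, 0.79 and -0.26 from Day0 to Day25. The other PIP2;8 spots were not lower on Day25. Spot 7.2.15.15 (unigene 24293) had -0.44, -0.26 and -0.42 on Day0, 0.019, -0.056 and -0.14 on Day5, 0.055, 0.087 and 0.16 on Day11, 0.27, 0.38 and 0.35 on Day15 and 0.30, 0.29 and 0.35 on Day25. All its Day0 samples were below all others, and the spread within a day was small. Its difference was 0.69 (standard error 0.10) from Day0 to Day25, short of 2-fold. Spot 12.2.17.24 (unigene 7698) had -0.67 and -0.65 on Day5, -0.40, -0.68 and -0.55 on Day11, 0.016, -0.031 and -0.45 on Day15 and 1.05 and 0.80 on Day25, with no kept value on Day0. Its Day25 values were above all others, and its means over all arrays were -0.37, -0.63, -0.58, -0.18 and 1.14 from Day0 to Day25, so that unigenes with the same best match, AT2G16850, were lowest and highest in mature embryos.

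TIP1;1 (AT2G36830) is an abundant aquaporin of the tonoplast in *A. thaliana*. Spot 3.1.23.12 (unigene 5701) gave -1.09, -0.99 and -0.82 on Day0, -1.16, -1.39 and -1.09 on Day5, -0.98, -0.66 and -0.57 on Day11, 0.095 and -0.13 on Day15 and 1.09 and 1.23 on Day25. Spot 11.3.19.23 of the same unigene gave -0.95, -0.66 and -0.71 on Day0, -0.73 and -0.46 on Day5, -0.77 and -0.29 on Day11, 0.013, -0.25 and -0.12 on Day15 and 0.85, 1.06 and 0.98 on Day25. In both spots the Day25 samples were above those of every other day, and the Day15 samples were above those of Day0. The difference was 2.13 (standard error 0.16) from Day0 to Day25 in the former and 1.74 (standard error 0.15) from Day0 to Day25 in the latter. From Day15 to Day25 alone it was 1.18 (standard error 0.18) and 1.09 (standard error 0.15). The TIP2 forms pass ammonia as well as water. TIP2;2 (spot 12.2.8.13, AT4G17340) had -0.14 and -0.29 on Day0, -0.16 and -0.39 on Day5, -0.70, -0.62 and -0.40 on Day11, -0.35, -0.31 and -0.33 on Day15 and 0.41, 0.51 and 0.33 on Day25. Its Day25 samples were above all others, at a difference of 0.63 (standard error 0.14) from Day0 to Day25. TIP2;1 (spot 7.3.19.3, AT3G16240) had 0.72 and 0.82 on Day0, 0.099, 0.019 and -0.027 on Day5, -0.36 on Day11, -0.58, -0.51 and -0.28 on Day15 and -0.25, -0.13 and -0.35 on Day25. Unlike in TIP2;2, its Day0 samples were above all others. Its means over all arrays were 0.75, -0.016, -0.43, -0.39 and -0.27 from Day0 to Day25.

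**Figure D2:**
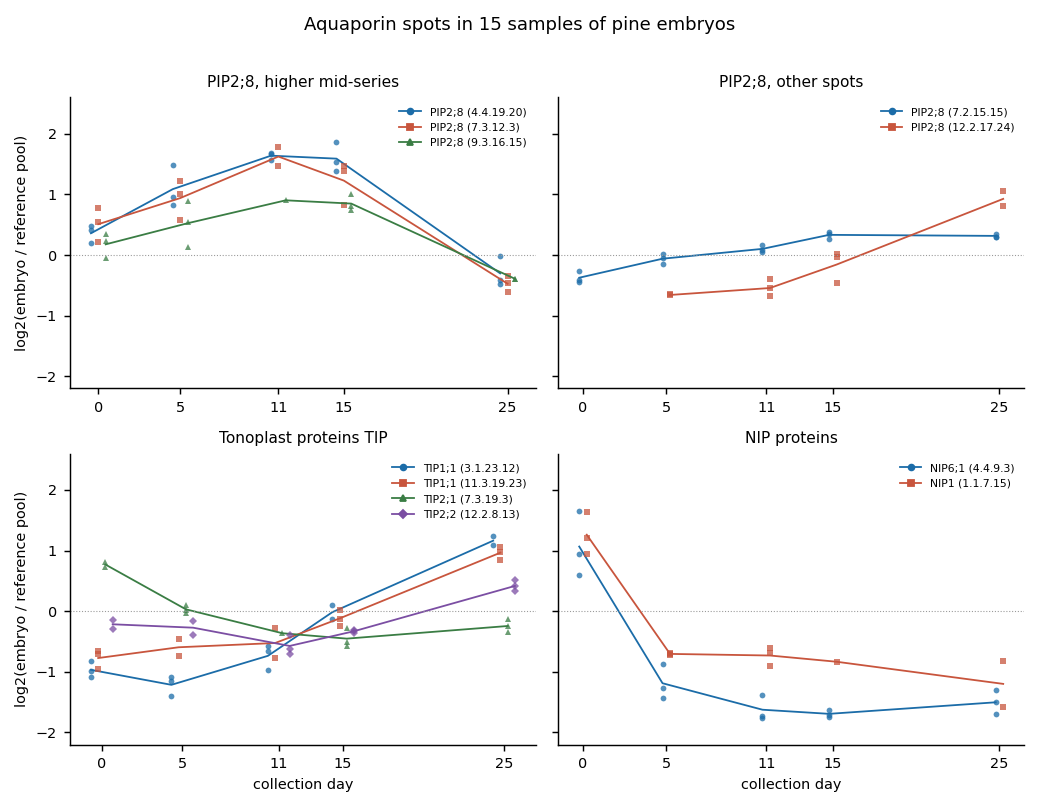
Log2 ratio of embryo over reference pool (vertical axis) by collection day (horizontal axis) for the 11 aquaporin spots, with points for the samples in which a spot was kept and lines through the day means. The NIP6;1 samples were at 0.60 to 1.65 on Day0 and at -0.88 or lower afterwards, whereas the TIP1;1 samples were highest on Day25.

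Among sugar and polyol transporters, MSS1, STP1 and ERD6-like 16 were lower in mature than in early embryos. The group has 11 spots, 5 of them with values on every day. Of these, the 3 named were apart and lower on Day25 than on Day0 (7.26% of all spots) and 0 were higher (8.62%). The differences of the 5 ran from -3.20 to -0.12, and the smallest, of STP4, came with overlapping samples and was 0.019 without replicate 2 of Day25. MSS1, a hexose and proton symporter also known as STP13, was on spot 11.3.20.6 (AT5G26340, unigene 22406), with 2.04, 1.38 and 1.84 on Day0, 0.21, -0.41 and -0.011 on Day5, -0.40 and -0.91 on Day11, -1.50, -0.58 and -0.76 on Day15 and -1.82, -0.87 and -1.64 on Day25. The Day0 samples stood clear of all others. The difference of -3.20 (standard error 0.28) from Day0 to Day25 was the largest of all 46 members in either direction. From Day0 to Day5 it was -1.82 (standard error 0.28). Spot 1.1.4.15 carries the same unigene and unigene 2832, which names an unlike protein, and had 1.40, 0.91 and 1.01 on Day0, 0.14, -0.20 and -0.11 on Day5, -0.0027, -0.24 and -0.35 on Day11, -0.27 on Day15 and -0.42 and -0.47 on Day25. Its Day0 samples were also the highest, while its later values stayed nearer to 0 than those of the other spot.

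STP1, a monosaccharide and proton symporter (spot 1.1.8.16, AT1G11260), had 2.04, 0.48 and 1.08 on Day0, -0.61, -0.95 and -0.94 on Day5, -0.83, -0.97 and -1.17 on Day11, -0.58 and -0.82 on Day15 and -0.66 and -0.45 on Day25. The Day0 samples were above all others but spread widely among themselves. Its difference was -2.03 (standard error 0.28) from Day0 to Day5 and -1.76 (standard error 0.32) from Day0 to Day25. ERD6-like 16, of a monosaccharide transporter family named after a drought-induced gene (spot 5.4.2.7, AT5G18840), had 1.00 and 1.05 on Day0, -0.18, -0.52 and -0.096 on Day5, -1.27, -1.13 and -0.99 on Day11, -1.58 and -1.02 on Day15 and -1.61, -0.93 and -1.27 on Day25. Its kept Day0 samples were above the Day5 samples, and these above all later ones. The difference was -1.29 (standard error 0.21) from Day0 to Day5 and -2.30 (standard error 0.21) from Day0 to Day25.

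STP4, a sink tissue monosaccharide transporter, and spot 6.1.21.9 of INT2, an inositol symporter, instead had their highest day means in early cotyledonary embryos. In both, the samples of Day11 and Day15 overlapped. The day means of STP4 (spot 4.3.4.19) were 0.17, 0.67, 1.44, 1.35 and 0.050 from Day0 to Day25. It was kept on all 30 arrays, and its Day25 minus Day15 difference was -1.30 (standard error 0.19). INT2 spot 6.1.21.9 (AT1G30220, unigene 6482) gave -0.91, -0.78 and -0.60 on Day0, 0.32, -0.34 and -0.67 on Day5, 0.81, 0.036 and 0.079 on Day11, -0.13, -0.37 and 0.43 on Day15 and -1.70, -1.49 and -1.68 on Day25. Its Day25 samples were below all others, while those of Day5, Day11 and Day15 overlapped. The difference was -1.60 (standard error 0.26) from Day15 to Day25. Spot 8.1.9.12 of the same unigene gave -0.31, -2.06 and -1.05 on Day0, -0.72, -0.64 and -1.48 on Day5, -0.081, 0.083 and 0.19 on Day11 and 0.93 on Day15, with no kept value on Day25. It was kept in no Day25 sample, and its means over all arrays, -1.09, -1.0, 0.034, 0.45 and 0.70 from Day0 to Day25, were highest on Day25, where those of 6.1.21.9 were lowest, -1.60. The last INT2 spot (10.3.16.6, unigene 3715) was kept on 6 arrays only and had means of 1.23, 0.14, 0.21, -0.56 and -1.99 from Day0 to Day25 over all arrays. Among the rest, the plastidic glucose translocator, which moves glucose across the plastid envelope, went from 0.59 on Day0 to -0.16 on Day25 over all arrays. STP7 went from -0.37 to 1.06, and polyol transporter 4 stayed within -0.32 and 0.37.

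**Figure D3:**
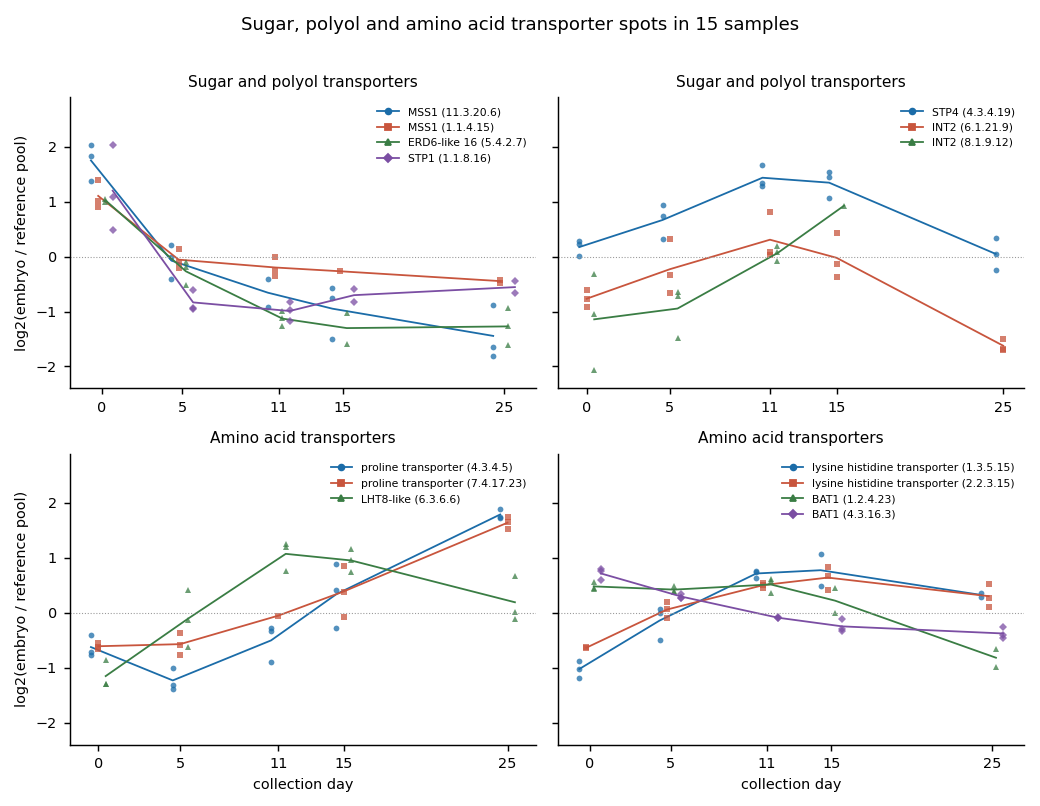
Log2 ratio of embryo over reference pool (vertical axis) by collection day (horizontal axis) for sugar and polyol transporters (upper panels) and amino acid transporters (lower panels), with points for samples and lines through day means. MSS1, ERD6-like 16 and STP1 had their highest day means on Day0, STP4 on Day11 and the proline transporter on Day25. The day means of the INT2 spots of 1 unigene lay further apart on Day5 and Day15 than on Day0 and Day11.

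Nucleotide sugar transporters carry activated sugars into the endoplasmic reticulum and Golgi, where cell wall polymers and glycoproteins are made. UDP-galactose transporter 3 (spot 5.4.4.10, AT1G14360) was the only one of 3 with at least 2 kept samples on every day. It had 1.46, 0.79 and 1.09 on Day0, 0.35 and 0.64 on Day5, -0.88, 0.065 and -0.35 on Day11, -0.79, -0.39 and -0.78 on Day15 and 0.11, 0.17 and -0.62 on Day25. Its Day0 samples were above all others, and it was apart on Day25 at -1.23 (standard error 0.25). The GDP-fucose transporter-like spot 1.1.20.23 had 1.30, 0.44 and 0.70 on Day0, -0.59 and -0.33 on Day5, -0.88, -0.68 and -0.58 on Day11, -0.80 and -0.62 on Day15 and -0.25 on Day25. Again the Day0 samples lay above all others. The remaining spot (12.3.22.13, AT5G65000) was kept on 5 arrays, with -0.070 on Day0, -0.16 on Day5 and 0.29, 0.28 and 0.25 on Day15, with no kept value on Day11 and Day25. Its means over all arrays were -0.12, -0.28, 0.016, 0.31 and 0.75 from Day0 to Day25, highest on Day25.

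Amino acid transporters divided into spots that were higher and spots that were lower in mature embryos. Of 11 spots, 7 had values on every day. Among these, 3 were apart and higher on Day25 than on Day0 (8.62% of all spots) and 2 lower (7.26%). The proline transporter spot 4.3.4.5 (AT5G41800, unigene 3726) had -0.40, -0.71 and -0.77 on Day0, -1.31, -1.0 and -1.38 on Day5, -0.89, -0.34 and -0.28 on Day11, 0.89, 0.42 and -0.28 on Day15 and 1.75, 1.73 and 1.89 on Day25. All Day25 samples were above all others, and the Day15 samples were the most spread. The difference was 2.41 (standard error 0.24) from Day0 to Day25, the largest in the higher direction among the 46 members, and 1.45 (standard error 0.24) from Day15 to Day25. Spot 7.4.17.23 of the same unigene, kept in only 1 sample of Day11, had -0.62, -0.56 and -0.65 on Day0, -0.76, -0.58 and -0.37 on Day5, -0.052 on Day11, 0.86, 0.38 and -0.072 on Day15 and 1.52, 1.66 and 1.74 on Day25. Its Day25 samples likewise stood above all others.

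Transporters of the LHT family, which in *A. thaliana* take up lysine, histidine and other amino acids, were lowest on Day0. The LHT8-like spot 6.3.6.6 (AT1G47670, unigene 200) had -1.30, -1.30 and -0.85 on Day0, 0.41, -0.14 and -0.62 on Day5, 1.20, 1.25 and 0.76 on Day11, 1.15, 0.96 and 0.75 on Day15 and 0.67, 0.010 and -0.11 on Day25. It was the single member apart at both of the first steps, with 1.04 (standard error 0.25) from Day0 to Day5 and 1.19 (standard error 0.25) from Day5 to Day11. Its Day25 samples lay below those of Day11 and above those of Day0. Spots 1.3.5.15 and 2.2.3.15, both of unigene 25365 with the same best match, gave -1.02, -1.18 and -0.87 on Day0, 0.077, -0.00023 and -0.50 on Day5, 0.64, 0.75 and 0.75 on Day11, 1.07 and 0.48 on Day15 and 0.36 and 0.29 on Day25 and -0.65 and -0.62 on Day0, 0.20, 0.069 and -0.097 on Day5, 0.51, 0.55 and 0.45 on Day11, 0.66, 0.84 and 0.42 on Day15 and 0.53, 0.11 and 0.27 on Day25. All later samples of both spots were above those of Day0. The difference between Day0 and Day25 was 1.35 (standard error 0.20), apart, in the former and 0.94 (standard error 0.16), short of 2-fold, in the latter. The BAT1 spots, which name a bidirectional amino acid transporter, were apart and lower on Day25 than on Day0, at -1.30 (standard error 0.16) (spot 1.2.4.23) and -1.09 (standard error 0.11) (spot 4.3.16.3). The former had day means of 0.48, 0.42, 0.52, 0.22 and -0.82 from Day0 to Day25. Its 2 kept samples of Day15 were at 0.45 and -0.011, the lower of them below all earlier samples. The latter was lower from Day5 on, with 0.72, 0.29, -0.090, -0.25 and -0.38 from Day0 to Day25. The permease AAP3, kept in only 1 sample of Day11, went from 0.62 on Day5 to -1.42 on Day25 over all arrays. AAP4 went from -0.81 on Day0 to 0.47 on Day11, also over all arrays.

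Among peptide and nitrate transporters, OPT3 and WR3 ran in opposite directions. OPT3 (spot 4.3.20.4, AT4G16370), an oligopeptide family protein of metal transport that embryos of *A. thaliana* need, had 1.76, 1.40 and 1.94 on Day0, -0.096, 0.071 and 0.36 on Day5, -0.83, -0.26 and -0.90 on Day11, -0.45, -0.20 and -0.77 on Day15 and 0.11 and -0.41 on Day25. The Day0 samples were far above all others. The difference was -1.59 (standard error 0.22) from Day0 to Day5 and -1.85 (standard error 0.24) from Day0 to Day25. WR3 (spot 7.2.20.15, AT5G50200), the partner protein of high-affinity nitrate transporters, had -0.67, -0.61 and -0.86 on Day0, 0.0052, -0.24 and -0.32 on Day5, 0.11, 0.095 and -0.019 on Day11, 0.27, 0.41 and 0.16 on Day15 and 0.56, -0.017 and 0.23 on Day25. Every Day0 sample was below all others, and the difference of 0.97 (standard error 0.15) from Day0 to Day25 was just short of 2-fold. Of the other 3 spots, the At1g27040-like peptide nitrate transporter had day means over all arrays of -1.32, -1.23, -1.29, -0.63 and 0.15 from Day0 to Day25. Its standard deviation on Day25 over all arrays was 0.66, and its single kept value of that day was 0.98. AT1G68570 had -0.99, -0.17, 0.87, 0.66 and 0.098 from Day0 to Day25 over all arrays, highest on Day11. Its kept values were instead highest on Day15, with a mean of 0.87 in 2 samples beside 0.71 in 1 sample of Day11.

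Metal transporters had 10 spots, 6 of them measured on every day. Of these, 4 had their highest day mean on Day0 (27.6% of all spots). On Day25, 2 were apart and lower than on Day0 (7.26% of all spots) and 1 higher (8.62%). The NIPA2-like spot 5.2.11.20 (AT1G34470), of a magnesium transporter family, had 1.39, 1.04 and 0.84 on Day0, 0.24, 0.42 and 0.55 on Day5, -0.36, -0.27 and -0.33 on Day11, -0.71, -0.59 and -0.45 on Day15 and -1.15 and -0.92 on Day25. Each harvest lay below the one before it without overlap, and its difference was -2.13 (standard error 0.16) from Day0 to Day25. YSL7, of the family that carries metals bound to nicotianamine, was on spots 12.3.21.2 and 5.3.20.8 (AT1G65730, both unigene 3402). Spot 12.3.21.2 had 1.06 and 1.02 on Day0, -0.19, -0.35 and -0.061 on Day5, -0.45, -0.55 and -0.44 on Day11, -0.64 and -0.27 on Day15 and -0.036, 0.074 and 0.12 on Day25. Spot 5.3.20.8 had 1.21, 0.93 and 0.96 on Day0, -0.26 on Day5, -0.43, -0.50 and -0.80 on Day11, -0.99 and -0.78 on Day15 and -0.042, -0.17 and -0.032 on Day25. In both, the Day0 samples were above all others, and the Day25 samples were above those of Day11 and Day15. The difference on spot 12.3.21.2 was -1.24 (standard error 0.14) from Day0 to Day5. VIT1, which loads iron into the vacuole and is known for placing iron in *A. thaliana* seeds, ran the other way, with day means of -0.87, -0.39, -0.19, 0.053 and 0.17 from Day0 to Day25 and a difference of 1.04 (standard error 0.15).

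The zinc transporter family ZIP gave spots with different time courses, among them a pair of the same unigene. Spot 3.1.7.18 (ZIP11, AT1G55910, unigene 6723) had 0.78, 0.64 and 0.53 on Day0, -0.42 and -0.20 on Day5, -0.49 and -0.71 on Day11, -0.80, -0.89 and -0.56 on Day15 and -0.85, -0.95 and -0.77 on Day25. All its Day0 samples were positive and all later ones negative, at -1.51 (standard error 0.13) from Day0 to Day25. Spot 4.2.7.13 of the same unigene was kept on 11 arrays, with -0.30 and -0.13 on Day0, -0.047 on Day5, 0.23, 0.086 and 0.28 on Day11, 0.10 and 0.25 on Day15 and -0.18 on Day25. Its lowest values were those of Day0 with the single kept value of Day25 between them, and all lay between the extremes of the other spot. A ZIP11 spot of unigene 4281 (10.1.15.16) had means of -0.75, -0.25, 0.12, 0.068 and -0.14 from Day0 to Day25 over all arrays, lowest on Day0. ZIP1 (spot 3.1.18.18, which also carries a unigene with an unlike name) had day means of 0.31, -0.10, -0.58, -0.75 and -0.57 from Day0 to Day25, ZIP5 means of -0.20, 0.061, 0.39, 0.37 and 0.19 from Day0 to Day25 over all arrays, and YSL3 day means of -0.47, -0.12, 0.36, 0.28 and 0.21 from Day0 to Day25.

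Of 8 spots for transporters of other ions, 4 were measured on every day. Among these, 2 were apart and lower on Day25 than on Day0 (7.26% of all spots) and 0 higher (8.62%). TPC1, a cation channel of the vacuole (spot 6.4.9.7, AT4G03560), had 1.19, 0.18 and 1.13 on Day0, 0.28 and 0.11 on Day5, -0.60, -0.11 and -0.24 on Day11, -0.20, -0.11 and -0.32 on Day15 and -0.56, -0.66 and -0.68 on Day25. The Day0 samples differed by more than 1 unit among themselves, and 1 of them overlapped with Day5. All were above the Day25 samples, at -1.47 (standard error 0.22) from Day0 to Day25. PHT1;4, a phosphate uptake transporter (spot 6.1.14.19, AT2G38940), had 0.62 and 0.55 on Day0, -0.057, 0.15 and 0.027 on Day5, -0.49, -0.39 and -0.24 on Day11, -0.28, -0.85 and -0.32 on Day15 and -0.63, -0.79 and -0.97 on Day25. Its Day0 values were above all others, and the difference was -1.38 (standard error 0.17) from Day0 to Day25. AKT5, a potassium channel of the Shaker family (spot 1.4.6.12, AT4G32500), had -0.91, -0.57 and -0.56 on Day0, 0.057, -0.28 and -0.38 on Day5, 0.25, 0.19 and 0.020 on Day11, 0.45 and 0.44 on Day15 and 0.16 and 0.44 on Day25. Every Day0 sample was below all others, at 0.98 (standard error 0.17) from Day0 to Day25, just short of 2-fold. An ALMT-like spot, of the malate channel family, had day means of -0.48, 0.089, 0.37, 0.26 and 0.27 from Day0 to Day25. Over all arrays, the potassium transporter KUP2 went from -0.26 on Day0 to 0.61 on Day15 and the calcium antiporter from -0.71 to 0.60. Over these, the cyclic nucleotide-gated channel CNGC19 went from -1.22 on Day0 to -1.38 on Day5 and 0.65 on Day25. Its standard deviation on Day25 was 0.75, and its single kept value of that day was 1.35.

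Carriers of nucleobases, nucleotides and other organic molecules had 4 spots with values on every day. All 4 were higher on Day25 than on Day0, by 0.47 to 1.47, and 1 was apart (8.62% of all spots). Adenine nucleotide transporter 1, a mitochondrial carrier, was on spot 7.3.18.9, whose second unigene names an unlike protein. It had -0.73, -0.53 and -0.87 on Day0, -0.24, -0.22 and -0.25 on Day5, 0.30, 0.44 and 0.23 on Day11, 0.48 and 0.33 on Day15 and 1.30, 0.39 and 0.58 on Day25. Samples of Day0 were below all others, at 1.47 (standard error 0.19) from Day0 to Day25. PUP1, which carries purines and cytokinins (spot 9.1.2.23, AT1G28230), had 0.18, -0.082 and 0.093 on Day0, -0.96, -0.86 and -0.31 on Day5, -0.65, -0.75 and -0.79 on Day11, -0.51, -0.50 and -0.47 on Day15 and 0.46, 0.70 and 0.46 on Day25. It was low in the middle harvests, where no sample reached those of Day0 or Day25, and the last step was 1.03 (standard error 0.15) from Day15 to Day25. The organic cation/carnitine transporter1 spot 9.3.16.6 (AT1G73220) had -0.39, -0.35 and -0.19 on Day0, -0.41, -0.45 and -0.38 on Day5, -0.65 and -0.53 on Day11, -0.73 and -0.69 on Day15 and 0.44, 0.59 and 0.74 on Day25. The Day25 samples were the only ones above 0, and the last step was 1.30 (standard error 0.13) from Day15 to Day25. Folate transporter 1, of plastids, had day means of -0.27, 0.31, 0.41, 0.36 and 0.41 from Day0 to Day25. The spots named for a choline transporter family and a NAT6-like nucleobase transporter were kept too seldom, with means of -0.64, -0.10, 0.49, 0.44 and -0.095 from Day0 to Day25 and -0.064, -0.29, -0.29, -0.30 and 0.18 from Day0 to Day25 over all arrays.

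ABC transporters had their highest day mean on Day0 in 4 of 5 measured spots (27.6% of all spots). The other measured spot, 1.4.9.7, also carries a unigene named for a beta glucosidase. PDR12 belongs to the pleiotropic drug resistance group and takes up abscisic acid in *A. thaliana*. Spot 3.3.22.8 (AT1G15520, unigene 3539) had 1.75, 1.00 and 1.38 on Day0, -0.035 and 0.11 on Day5, -0.29 and -0.18 on Day11, -0.49, 0.34 and -0.43 on Day15 and -0.34 and -0.38 on Day25. The Day0 samples were above all others, with -1.34 (standard error 0.25) from Day0 to Day5 and -1.74 (standard error 0.25) from Day0 to Day25. Spot 1.3.20.23 of the other PDR12 unigene, 82524, had 1.25, 0.56 and 0.39 on Day0, -0.26, -0.10 and -0.035 on Day5, -0.76, -0.38 and -0.27 on Day11, -0.54 and 0.061 on Day15 and -0.46, -0.12 and -0.19 on Day25. Its Day0 samples were above all others as well, though the difference of -0.99 (standard error 0.22) from Day0 to Day25 was short of 2-fold. An ABCB spot (3.1.20.11, AT3G28345) had 0.44, 0.40 and 0.32 on Day0, -0.31, 0.14 and -0.37 on Day5, -0.34 and -0.98 on Day11, -1.13 and -0.73 on Day15 and -0.45 and -0.65 on Day25. Day0 lay above all other days, and the difference was -0.94 (standard error 0.21). The other spot with this best match (9.4.11.6) had day means of 0.38, 0.039, -0.57, -0.47 and -0.35 from Day0 to Day25. The 2 remaining spots carry a second unigene with an unlike name, polyubiquitin in the one and a beta glucosidase in the other. Their level cannot be given to an ABC transporter.

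Among spots whose description gives no substrate, the nodulin-like transporter AT5G07050 (spot 4.3.20.1, unigenes 864 and 19738) went from the lowest sample value of all members. It had -3.37 and -2.65 on Day0, -1.25, -0.56 and -0.74 on Day5, 0.12 on Day11, 1.42, 1.26 and 0.49 on Day15 and 1.48 on Day25. Its Day0 values were below the Day5 values, and these below all later ones, but Day11 and Day25 were kept in 1 sample each. Its means over all arrays were -2.93, -0.92, 0.46, 0.99 and 0.99 from Day0 to Day25. A general substrate transporter of the major facilitator superfamily (spot 12.2.4.24) had 0.25, 1.50 and 1.18 on Day0, -0.088 and 0.25 on Day5, -0.27, -0.37 and -0.75 on Day11, -0.96 and -0.32 on Day15 and -0.72, -0.75 and -1.09 on Day25. The lowest Day0 sample equalled the highest of Day5 to 2 decimals, and all Day0 samples were above those of Day25, at -1.83 (standard error 0.28) from Day0 to Day25. AT5G10190 (spot 5.3.15.12) had -0.87 and -0.90 on Day0, -0.96, -0.77 and -0.83 on Day5, -1.26 and -0.97 on Day11, -0.23, -0.86 and -0.56 on Day15 and -0.19, 0.17 and 0.19 on Day25. Its Day25 samples were the highest, with 1 Day15 sample close below, and the difference was 0.95 (standard error 0.18). Another general substrate transporter (spot 4.4.7.7) had -0.52, -0.37 and -0.41 on Day0, -0.11, -0.25 and -0.063 on Day5, 0.25, 0.12 and -0.024 on Day11, -0.054, 0.13 and 0.20 on Day15 and 0.024, 0.076 and -0.012 on Day25. Day0 lay below all other days by a small margin, at 0.46 (standard error 0.11). AT4G08290, also nodulin-like, had means of -0.54, -0.046, 0.45, 0.40 and -0.099 from Day0 to Day25 over all arrays.

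For 4 spots the search word stands in the description of a protein that is no transporter or has another role. AGO1, the slicer protein of microRNA complexes, was on spot 2.2.5.12 (AT1G48410, unigene 38), with -1.40 and -1.0 on Day0, 0.43, 0.31 and -0.26 on Day5, 0.61, 0.95 and 1.03 on Day11, 1.47, 1.48 and 0.47 on Day15 and 1.45, 1.18 and 0.78 on Day25. The Day0 values were below all others, with differences of 1.36 (standard error 0.30) from Day0 to Day5 and 2.34 (standard error 0.30) from Day0 to Day25. EIN2, a membrane protein of ethylene signalling related to metal transporters (spot 12.2.5.5, AT5G03280), had -0.59, -1.05 and -0.89 on Day0, 0.27, -0.058 and -0.18 on Day5, 0.49, 0.52 and 0.18 on Day11, 0.70, 0.69 and 0.22 on Day15 and 1.32, 0.78 and 0.51 on Day25. Day0 lay below all other days, and the difference was 1.71 (standard error 0.21) from Day0 to Day25. The other spots, of AGO1 (unigene 9118) and of PHF1, which helps phosphate transporters leave the endoplasmic reticulum, were kept on 4 and 12 arrays, and their day means over all arrays ranged from -0.40 to 0.50 and from -0.28 to 0.25. Without these 4 spots, 44 members had values on every day. Of these, 7 were apart and higher on Day25 than on Day0 (8.62% of all spots) and 14 lower (7.26%).

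Spots that carry the same pine unigene are separate measurements on the same arrays, and 8 unigenes had a pair of member spots. In 6 pairs the log2 ratios correlated at 0.943 to 0.980 over the samples in which both were kept (10 to 14 samples). These were the pairs of YSL7, the proline transporter, TIP1;1, PIP2;8, MSS1 and the lysine histidine transporter, and their mean absolute difference ran from 0.16 to 0.50. The ZIP11 pair correlated at -0.67 over 7 samples, with a mean absolute difference of 0.86, and at -0.39 over 15 samples when all arrays were used. The INT2 pair correlated at 0.43 over 10 samples, none of them of Day25, and at -0.18 over 15 samples with all arrays. The points share their arrays, and both spots of a pair had been listed for changing over these same harvests. The correlations therefore partly repeat the courses that chose the spots, and no p is given. Spots of these unigenes that are not members were not looked at. The time course given to ZIP11 unigene 6723 and to INT2 unigene 6482 differed with the spot read.

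**Figure D4:**
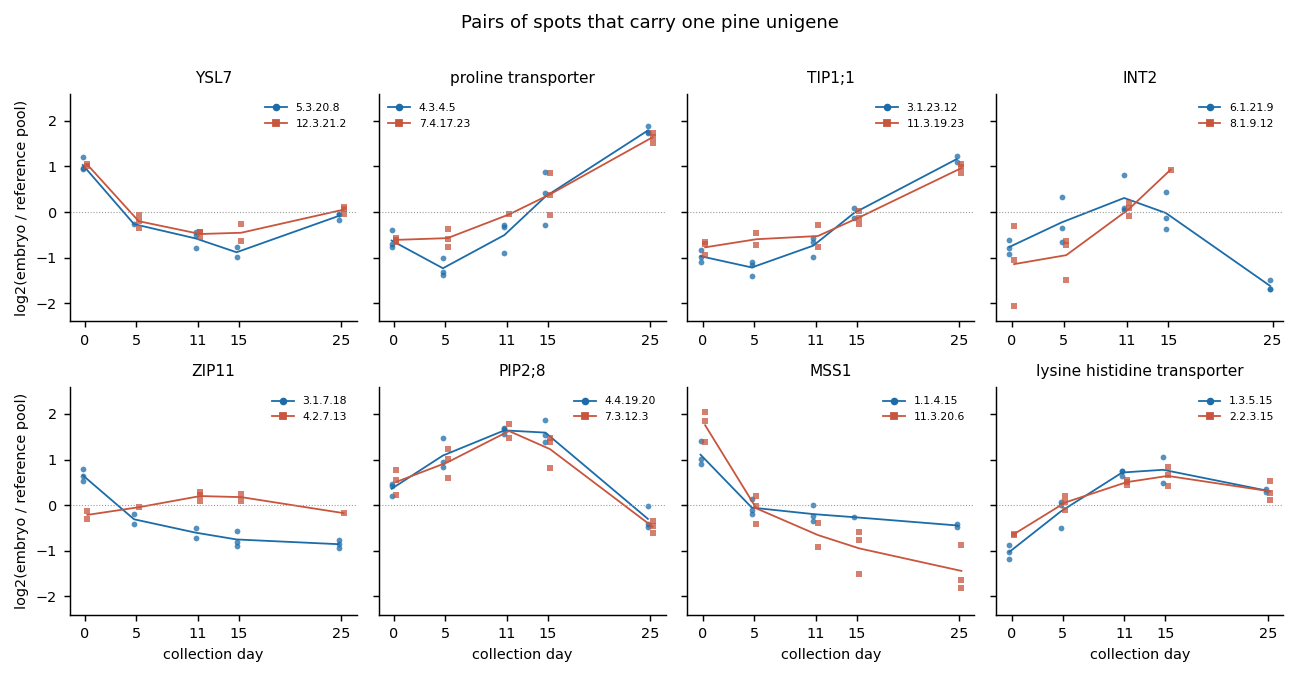
Log2 ratio of embryo over reference pool (vertical axis) by collection day (horizontal axis) for the 8 pairs of spots of 1 unigene each, with points for samples and lines through day means. The spots of 6 pairs run alike over the days, though not always at the same level. Those of MSS1 had day means of -1.44 and -0.45 on Day25. The spots of INT2 lie apart on Day5 and Day15 and those of ZIP11 on Day0 and after Day5.

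When all arrays were used without the quality marks, all 80 members had values, and those kept too seldom could be counted. Then 20 members were at least 2-fold higher without overlap on Day25 than on Day0 (9.61% of all 26496 spots) and 22 lower (8.05%). From Day0 to Day5, 2 were higher (0.936%) and 13 lower (1.54%). From Day5 to Day11, 4 were higher (0.736%) and 0 lower (0.63%), and from Day11 to Day15 the count was 0 in both directions (0.109% and 0.00755%). From Day15 to Day25, 7 were higher (1.91%) and 6 lower (0.789%). By class, water channels had 3 higher and 4 lower on Day25 than on Day0, and sugar and polyol transporters 2 and 5. Amino acid transporters had 6 higher and 2 lower, and metal transporters 1 and 3. From Day0 to Day5, 5 sugar and polyol, 3 metal and 2 water channel spots were lower. In these values, 28 of the 80 members had their highest mean on Day0 and 2 on Day5. The share over all spots was not computed for these values. With the quality marks, it was 27.6% on Day0 and 19.5% on Day5 over all spots with values on every day.

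ATP-driven pumps were set beside the carriers, among them the proton pumps that build the gradient, and pumps of calcium, copper and phospholipids. Of 12 spots of ATP-driven pumps in the same tables, 8 had values on every day, with 3 apart and higher on Day25 than on Day0 (8.62% of all spots), 4 lower (7.26%) and a median difference of -0.31. They too were listed for changing over the harvests. Among plasma membrane proton pumps, both AHA2 spots were lower, at -2.69 (standard error 0.24, spot 2.1.19.13) and -1.72 (0.25, spot 2.1.14.2), as was spot 10.4.23.6 at -1.25 (0.17), whereas spot 8.4.6.20 had 0.63 (0.13), short of 2-fold. A copper-exporting ATPase (spot 6.1.18.4) was higher, at 2.84 (0.25). Of the calcium ATPases, spot 6.3.8.11 was higher, at 2.16 (0.25), and spot 2.1.12.16 lower, at -1.34 (0.21). Spots 10.4.23.6, 8.4.6.20 and 2.1.12.16 were added after their values were seen. Of 12 other carriers outside the search words, 8 had values on every day, with 2 higher (8.62% of all spots), 2 lower (7.26%) and a median of 0.78. The medians of all members and of all spots were -0.39 and -0.025.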

How the data were processed

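Spot intensities of 30 arrays (5 days, 3 samples a day, 2 technical replicate arrays a sample) were used as deposited by the authors, without normalization. The quality marks in the same files were used as the authors deposited them, 1 for kept. The log2 ratios that the authors deposited, normalized by print-tip and cyclic loess, served as an alternative. Tables of the study gave names only.

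In R 4.3.3 with limma 3.58.1, log2 ratios of Cy3 over Cy5 were formed without background correction and normalized by print-tip loess (48 tips, span 0.3, 4 iterations) and cyclic loess over both channels (3 iterations). A value needed both marks, and the arrays of a sample were averaged. Day means, their differences and standard errors came from 1 fit over 15 samples, for spots with at least 2 samples on every day (14513), and the fit was tested on simulated data. The number of arrays limits the precision. Replicate numbers were not used to pair samples. Same-numbered samples of different days had a median correlation of their deviations of 0.090 (-0.378 to 0.494, 30 pairs). For differently numbered samples of different days it was -0.035 (-0.469 to 0.572, 60 pairs).

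The members and lists were chosen with earlier results of these data known. Values in every sample are given for aquaporins, for members that share a unigene and for all members of a class of 3 or fewer. In other classes they cover the 3 members with the largest range of day means among those with 2 or 3 samples on each day. AT5G07050 (4.3.20.1) is given by sample outside this rule. Further members are named with day means or ranges. Spot sequences were not used here.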

Additional observations from a re-analysis of the deposited data

How the results depend on the processing

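Single differences between Day0 and Day25 were recomputed for each member under every alternative. Of 607 values, 585 lay within 1 SD (of the Day0 and Day25 samples) of the value given. The other 22 moved by more, and 0 of the members apart changed sign. Leaving out 1 sample, the dimmest spots or members without all samples could not move a value that far, nor turn the sign of a member apart. Of 46 members, normexp background correction moved 9, 1 loess curve per array 6, no filter on quality marks 6 and the authors' ratios 1. The replicate block and no between-array step moved 0. Of the members not apart, 1 value had the other sign, that of STP4 (4.3.4.19), -0.12 as given and 0.019 without replicate 2 of Day25. The log2 ratios of the authors, normexp background correction, 1 loess curve per array, no between-array step, omission of the dimmest spots (under the 0.25 quantile) and the replicate block left every count of members within 1.5 times. With the replicate number as a block, which the fit as given leaves out, 10 members were higher and 14 lower on Day25 than on Day0. These were the 23 apart without it and AKT5 (1.4.6.12), at 1.00 with the block and 0.98 without.

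Without the filter on quality marks (80 members), the counts were 13 lower on Day5 than on Day0, 4 higher on Day11 than on Day5, 20 higher and 22 lower on Day25 than on Day0, and 69 with an R-squared of at least 0.7. With values needed in all 3 samples of every day, which left 18 members, they were 1 higher and 1 lower on Day5 than on Day0, 2 higher and 3 lower on Day25 than on Day15, 4 higher and 2 lower on Day25 than on Day0, and 18 with that R-squared. Both settings change how many members have values, and the first also changes the values of the 46.

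With each sample left out in turn, the counts ranged from 1 to 3 higher and 7 to 9 lower on Day5 than on Day0, 0 to 1 higher and 0 to 1 lower on Day11 than on Day5, and 0 to 1 higher on Day15 than on Day11. They ranged from 4 to 5 higher and 4 to 6 lower on Day25 than on Day15, 9 to 12 higher and 14 to 17 lower on Day25 than on Day0, and 44 to 46 with that R-squared. The quality marks left 34 members without at least 2 kept samples on every day, and these enter only the counts without the filter.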
